A study of Mus musculus with 2 samples.

Results

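In the hearts studied here, 521 spliced transcript models in replicate 1 and 674 in replicate 2 lay in loci that the GENCODE M21 annotation does not list. They were chosen from 56790 and 69026 deposited models by 2 properties: the deposited tables class their locus as antisense (opposite an annotated gene) or intergenic, and the model has at least 2 exons. Models were matched between the libraries by chromosome, strand and intron chain, which is the ordered set of all introns of a model. This gave 1059 distinct chains, of which 700 were classed as antisense in at least 1 library and 359 as intergenic. Read counts played no part in the choice, other than that a model needs at least 1 read to be listed.

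The RNA came from the heart of male mice of the cross B6CASTF1/J, 2 months old, which are first-generation hybrids of C57BL/6J and CAST/EiJ. There was no treatment and no second group. Each of the 2 libraries was made from 2 µg of RNA and read with a long-read method, in which 1 read can follow a whole transcript. The labels name a separate biosample for each library, yet the library descriptions carry the same animal number, so differences between the libraries measure a spread that may be technical. All 7 cardiomyocyte markers were read in both libraries, with summed levels of 48954 and 41486 CPM (reads scaled to a common total of annotated nuclear gene reads). Most of each sum was Myh6, with 36490 and 27650 CPM, while every other cardiomyocyte marker was higher in replicate 2. The 5 erythroid markers summed to 13799 CPM in replicate 1 and 3662 CPM in replicate 2, and the 4 thymus and lung markers to 4.65 and 0 CPM. Replicate 1 held 447650 reads of mouse models and replicate 2 held 654130, so 1 read is worth 2.32 CPM in replicate 1 and 1.59 CPM in replicate 2.

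Mammalian genomes are transcribed at many places outside annotated genes, and part of this RNA is spliced. The spliceosome cuts at a donor site that nearly always begins the intron with GT and an acceptor site that ends it with AG, so the bases at the ends of an intron carry the direction of transcription. Antisense RNAs run opposite to a gene and need not share any splice site with it, since the splice signals of a gene read backwards are not splice signals.

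Antisense chains fell into 3 kinds by their introns. In 127 chains, called mirrored here, every intron had the same coordinates as an annotated intron of the opposite strand. In 541 chains, called own-intron chains, no intron matched one, and 32 chains lay between these kinds, with some introns identical or with both sites within 10 bases. The bases at intron ends are shown first because splice sites have a direction. In mirrored chains, however, these bases follow from how the kind was defined. No genome sequence of the build was at hand, so ends were read from GENCODE M21 transcripts and RefSeq promoter windows wherever these cover them, and 83 of 1503 distinct introns (5.52%) were readable at both ends. That is too few for a share over all introns, and the counts describe the readable ones only.

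All 14 readable introns of mirrored chains began with CT and ended with AC on the strand of the model, which is GT-AG when read on the strand of the annotated gene. Of 64 readable introns of own-intron chains, 57 were GT-AG and 7 were GC-AG on the strand of the model. The 4 readable introns of partly mirrored chains and the 1 of an intergenic chain were GT-AG. Over all readable ends, those of the introns above included, 29 of 29 donors and 26 of 26 acceptors of mirrored chains were CT and AC. Own-intron chains had GT at 135 and GC at 10 of 145 donors and AG at 110 of 111 acceptors. Partly mirrored chains were mixed, with GT at 10 of 10 donors but AG at 16, AC at 3 and another pair at 1 of 20 acceptors. Since mirrored introns are by definition those of the opposite gene, their ends follow from that choice and are a description. The ends of own introns were not part of that definition. The sources used here do not say how reads were aligned, corrected or given a strand. Whether the bases at intron ends entered the placement of own introns was therefore not tested. The next sequences show 3 mirrored and 4 own-intron examples, taken from the readable introns with the most reads of their kind. Each is given 5′ to 3′ on the strand of the model. The first end holds 10 exon bases and then 10 intron bases, the last end 10 intron bases and then 10 exon bases, and capitals mark the first and last pair of intron bases.
Nr2f2 first end: ctctgtacagCTgcaggagg
Nr2f2 last end: aggccgatACcttcccgtct
Fan1 first end: tgaccactagCTgcaacaaa
Fan1 last end: ccgaaggtACctgacaactg
Kri1 first end: ctgcatccatCTatcagaaa
Kri1 last end: tggcactcACgttaaagtca
Neat1 first end: gcatagagcaGTgtttgcag
Neat1 last end: catagagcAGtgtttgcagg
Klhl24 first end: taacactgtcGTtacacaga
Klhl24 last end: aacgctgtAGttacacaggt
Dusp1 first end: tcctcatgagGTaagcaagg
Dusp1 last end: tcctccacAGggatgctctt
Gm36981 first end: agtagaagtgGTaagtagga
Gm36981 last end: tgctttacAGacaagcttgc

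The Nr2f2 intron spans chr7:70358291-70359887 on the plus strand (mm10) opposite the gene for a nuclear receptor of atrial and venous identity, and was read 3 times in each library. Mirrored introns opposite Fan1, a DNA repair nuclease (chr7:64371660-64372260, plus strand), and Kri1, a ribosome assembly factor (chr9:21276182-21276384, plus strand), had 2 reads in replicate 1 and 0 in replicate 2. Among own-intron chains, the one opposite Neat1, the RNA scaffold of paraspeckles, had its intron placed at chr19:5840809-5840867 on the plus strand. That intron was 59 bases long, with 4 and 3 reads. Opposite Klhl24, which encodes a substrate adaptor of a ubiquitin ligase, the intron chr16:20126352-20126442 on the minus strand was 91 bases long, with 2 and 4 reads. The intron opposite Dusp1, a phosphatase of MAP kinases, was 480 bases long (chr17:26506568-26507047, plus strand; 1 and 3 reads), and that opposite Gm36981 was 747 bases long (chr3:84061805-84062551, plus strand; 2 and 2 reads).

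Some short own introns had the same bases at both ends. In the Neat1 example above, a stretch of 19 bases occurs in the first and again in the last window, and in the Klhl24 example a stretch of 9 bases does so, while the longest stretch shared by both Dusp1 windows is 5 bases. Among 60 own introns with both windows of 20 bases read in full, 6 shared a stretch of at least 8 bases, and all 6 were among the 40 introns under 500 bases. The longest shared stretch was 20 bases. These 60 introns had a median length of 297.5 bases, against 1573 bases for all distinct introns of the spliced models. They therefore do not stand for own introns as a whole. None of the 14 mirrored introns shared more than 5 bases, and the median was 4 bases in both kinds. The part that shared stretches play in how these reads were aligned or made was not tested.

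The spliced models held few reads. They took 966 reads in replicate 1 and 1320 in replicate 2, 0.216% and 0.202% of mouse reads (mean 0.209% ± 0.0099, SD, n = 2 libraries). Antisense models held 500 and 657 of these reads and intergenic models 466 and 663. Spliced models lay in 423 of 6819 unannotated loci in replicate 1 (6.20%) and in 551 of 7896 in replicate 2 (6.98%), and held 6.57% and 6.69% of the reads of such loci. The other models of these loci had a single exon, 6504 models with 13733 reads and 7507 models with 18399 reads. A single read supported 82.9% of the spliced models in replicate 1 and 82.2% in replicate 2, and 852 of the 1059 chains (80.5%) had 1 read over both libraries.

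Most chains had few exons. Over all chains, 665 (62.8%) had 2 exons, 218 had 3 and 176 had 4 or more, with 25 at most. Median model length was 1637 bases in replicate 1 and 1518 in replicate 2, against 2494 and 2410 bases and 8 exons for known spliced transcripts in the same libraries, and against 929.5 and 906 bases for the single-exon models. The median intron of the spliced models measured 1584 and 1597 bases, and that of known transcripts 1236 and 1239. Over all 1503 distinct introns the quartiles were 444 and 5016 bases, 38 introns were shorter than 60 bases and 35 longer than 50000. Only 155 introns were used by more than 1 chain, and 224 chains shared an intron with another chain.

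Between the libraries, 136 chains were found in both, 26.1% of the chains of replicate 1 and 20.2% of those of replicate 2. These 136 chains held 57.6% and 54.4% of the reads of all spliced models. Replicate 1 alone held 385 chains and replicate 2 alone 538. Finding a chain again followed its read number. The counts by read number below include reads that a library placed under an annotated gene, which concerns 5 chains. They therefore differ slightly from the numbers above. Of 434 chains with 1 read in replicate 1, 17.1% were found in replicate 2 (exact 95% interval 13.6 to 20.9), of 50 chains with 2 reads 56% (41.3 to 70), and of 20 chains with 3 to 4 reads 95% (75.1 to 99.9). All 20 chains with 5 or more reads were found (lower bound 83.2%). In the other direction, 11.9% of 555 chains with 1 read (9.32 to 14.9), 47.8% of 69 with 2 reads (35.7 to 60.2), 65.4% of 26 with 3 to 4 reads (44.3 to 82.8) and 25 of 26 chains with 5 or more reads (96.2%) were found in the less deeply sequenced replicate 1.

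At equal read number these chains were set beside the deposited classes of annotated genes. Among chains with 1 read in replicate 1, known transcripts were found again in 54.8%, incomplete matches of known transcripts (ISM) in 30.5%, new combinations of known splice sites (NIC) in 26.8% and models with at least 1 splice site missing from the annotation (NNC) in 15.8% (15 to 16.6). The interval for the spliced models of unannotated loci held the NNC value and lay below the other 3. From replicate 2, the matching values were 38.7%, 19.5%, 18.6% and 10.5% (9.94 to 11.1), and the order of the classes was the same. At 5 or more reads, every class of replicate 1 was found again in at least 98.9%. These intervals describe counting error and nothing else, since copies of 1 molecule are not marked in the data.

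**Figure D1:**
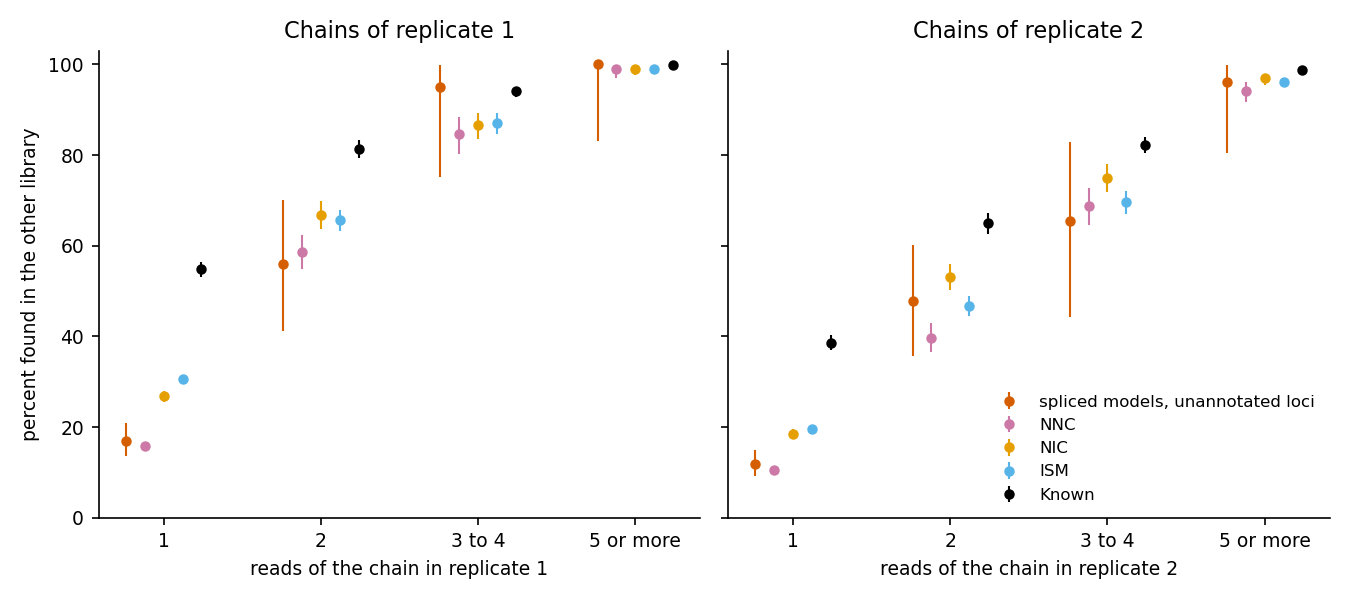
Percent of chains found in the other library (y axis) against the reads of the chain in its own library (x axis), for chains of replicate 1 (left) and replicate 2 (right). Points are shares and bars exact 95% intervals. The spliced models of unannotated loci lie next to the NNC class at 1 read, at 17.1% and 11.9%, and reach 100% and 96.2% at 5 or more reads.

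Recovery was also compared between the kinds. Among chains with 1 read in replicate 1, 10% of 50 mirrored (3.33 to 21.8), 17.3% of 220 own-intron (12.5 to 22.9) and 16.6% of 145 intergenic chains (10.9 to 23.6) were found in replicate 2. With 2 or more reads, the shares were 82.6% of 23 mirrored (61.2 to 95.1), 67.5% of 40 own-intron (50.9 to 81.4) and 80% of 25 intergenic chains (59.3 to 93.2). All these intervals overlap within a read class, so no order of the kinds can be read at this depth. The ends of matched chains were compared too. Their 3′ ends lay within 10 bases of each other in 105 of 136 chains and their 5′ ends in 66 of 136. The median distance was 0 bases for 3′ ends and 11.5 bases for 5′ ends, while 12 chains started and 16 ended more than 1000 bases apart.

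None of the spliced chains with at least 10 summed reads was called different between the libraries. In all, 20 chains had at least 10 summed reads and could be tested by an exact binomial test (two-sided) of their reads, adjusted over all 8543 spliced chains of every class with that many reads. None of the 20 passed (adjusted p under 0.05 and at least 2-fold), where 0.117% of all tested chains did, and 1 of 20 had an unadjusted p under 0.05, against 6.6% of all tested. The 20 log2 ratios of replicate 1 to replicate 2 ran from -1.23 to 1.47, with a median of 0.08 against 0 for all tested chains. This test sets 1 library against 1 other within counting error, and a p that misses the threshold does not show equal levels. Chains with little more than 10 reads could not have passed as higher in replicate 2, even with all their reads there. For these chains a missed threshold therefore says little.

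**Figure D2:**
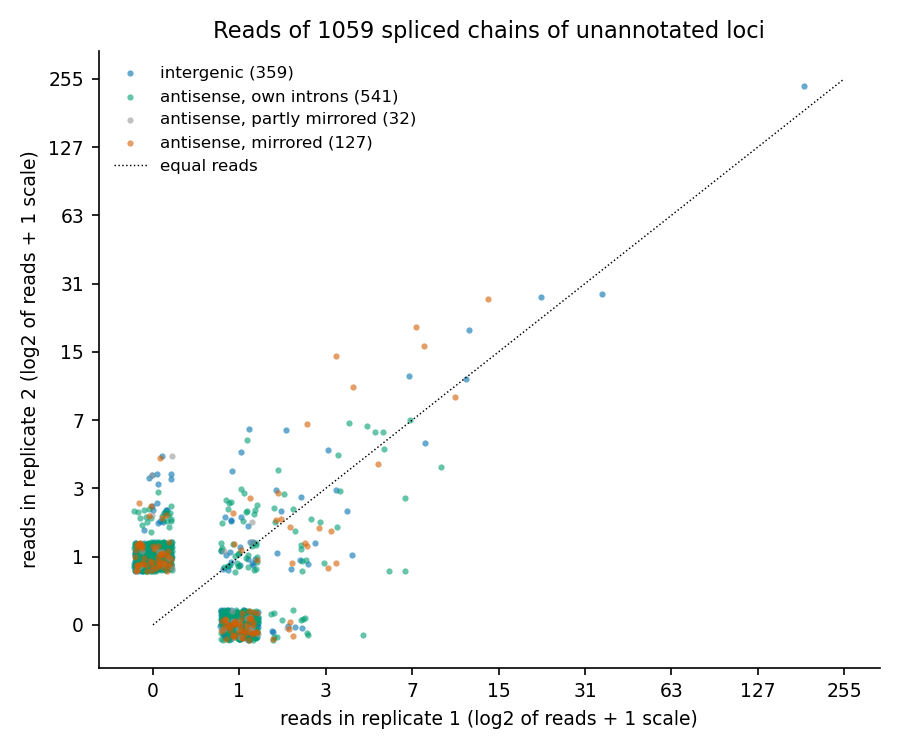
Reads in replicate 1 (x axis) and replicate 2 (y axis) of the 1059 spliced chains, on scales of log2(reads + 1), with points spread by a small random amount so that chains with the same reads can be seen. Colours give the kind of chain and the dotted line equal reads. Most chains sit at 1 read in 1 library and 0 in the other, and 1 intergenic chain stands apart at 184 and 272 reads.

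A single intergenic chain stood far above the rest. It lies on the plus strand at chr11:31545795-31549649 between Stc2, a secreted glycoprotein gene 175720 bases away, and Bod1, a chromosome segregation gene 115531 bases away. The model has exons of 207 and 1649 bases and an intron of 1999 bases (chr11:31546002-31548000), and its deposited start and end were identical in both libraries. It had 184 reads in replicate 1 and 272 in replicate 2, or 427.7 and 431.8 CPM (mean 429.7 ± 2.94). Both values are almost equal, with a ratio of 0.990 (exact 95% interval 0.817 to 1.20). The chain held 19.1% and 20.6% of all reads of the spliced models, and the 10 chains with the most reads held 31.5% and 33.3%.

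The other intergenic chains had at most 31 reads in a library. On the minus strand of chromosome Y, a 2-exon chain at chrY:43918755-43921964 with an intron of only 77 bases had 31 and 25 reads, or 72.1 and 39.7 CPM. Its ratio of 1.82 (1.04 to 3.21) gave the smallest unadjusted p of the 20 tested chains, 0.029, and an adjusted p of 0.677 in the exact binomial test. Chromosome Y holds many near-identical copies of sequence, so the placement of these reads is uncertain. A 3-exon chain at chr1:189993452-189998267 on the plus strand had 10 and 17 reads, and its neighbours are Smyd2, a lysine methyltransferase gene 71088 bases away, and Prox1, a homeobox gene 119767 bases away. A pair of chains at chr11:107201925-107205838 on the plus strand differ only in the length of their second intron, 299 or 270 bases. The first had 12 and 10 reads and the second 7 and 5. They lie 2053 bases from Pitpnc1, which encodes a phosphatidylinositol transfer protein, and RefSeq lists a gene there, Gm39425.

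The locus with the most spliced chains lay on the minus strand of chromosome 8, between the endothelin receptor gene Ednra (236920 bases away) and Ttc29 (228066 bases away). Its 31 chains used 22 distinct introns and held 58 reads in replicate 1 and 70 in replicate 2, and 9 chains were found in both libraries. The leading chain, chr8:77961385-77985230, has 6 exons and had 24 and 31 reads (55.8 and 49.2 CPM, mean 52.5 ± 4.64), which is 41.4% and 44.3% of the spliced reads of the locus. Both libraries thus gave the same leading chain at a similar share. A 7-exon chain followed with 7 and 10 reads. It differs from the leading one in that an intron of 3792 bases is removed from the last exon. Of the 31 chains, 24 started within 10 bases of the leading chain's start, and 23 shared its first intron of 11813 bases, which was crossed by 51 and 67 reads. The most exons were 8, in 4 chains, of which 1 had a read in each library, and 18 of the 31 chains had a single read.

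**Figure D3:**
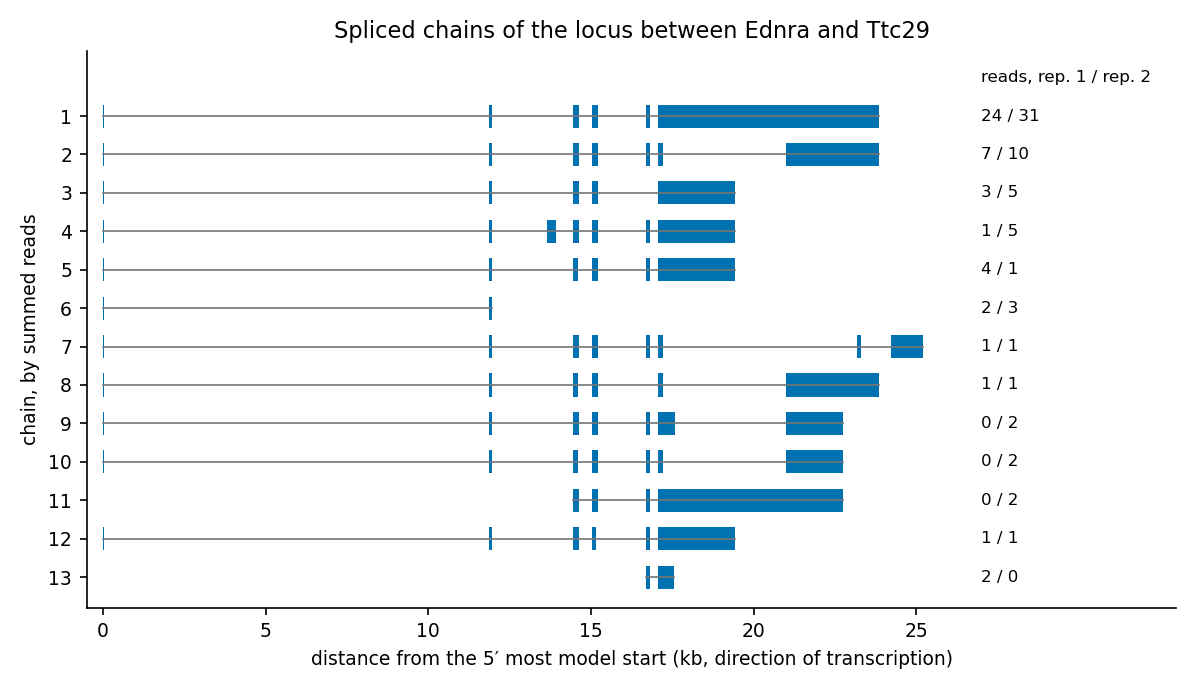
Exons (boxes) and introns (lines) of the 13 chains with at least 2 summed reads at the chromosome 8 locus, drawn to scale against the distance in kb from the 5′ most start, with reads in replicate 1 and replicate 2 at the right. Chains differ in the last exon and in internal exons, and the first intron of 11813 bases is common to 11 of the drawn chains.

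Intergenic chains lay at varied distances from annotated genes. The median gap to the nearest gene was 10151 bases, with quartiles of 2765 and 35909 bases. Of 359 intergenic chains, 58 lay within 1000 bases of a gene or overlapped the span of one, and 73 lay more than 50000 bases away. Only 9 chains (2.51%) started within 1000 bases upstream of an opposite gene start, the divergent arrangement of a promoter that fires both ways. 

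RefSeq, a second annotation, lists genes at some of these loci. Of 1033 chains on chromosomes where the strand of RefSeq genes was at hand, 225 (21.8%) overlapped a RefSeq gene on the same strand that M21 does not hold, and these were 138 distinct genes. The share was 34.8% of intergenic, 19.3% of own-intron antisense and 0.794% of mirrored chains, that is 1 of 126 mirrored chains. Of the chains with such a gene 32.9% had 2 exons, and of the chains without one 70.4%. Of the 225 chains, 71 started within 100 bases and 151 within 1000 bases of a RefSeq start. Both libraries held 34 of the 225 (15.1%) and 100 of the other 808 (12.4%).

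In all, 70 chains, 9 of them found in both libraries, started inside the promoter window of a RefSeq gene, which runs from 250 bases before to 50 bases after the annotated start. They used 43 windows and held 45 and 48 reads. Windows are shown for the genes of 3 such starts because they let a reader set the first base of a model against the RefSeq start. At Gm32622 (chr1:75936482-75936781, plus strand) 3 chains with 5 and 4 reads in all were placed, the foremost starting 9 bases from the RefSeq start. At Zfp33b (chr5:104571422-104571721, plus strand) 4 chains had 3 and 3 reads and a start 3 bases away, and at Gm32113 (chrX:140385816-140386115, minus strand) 2 chains had 4 and 2 reads and a start 17 bases away. Sequences are from RefSeq's annotation of the mm10 assembly, 5′ to 3′ on the strand of the gene, and capitals run from the start of the model to the end of the window.
Gm32622: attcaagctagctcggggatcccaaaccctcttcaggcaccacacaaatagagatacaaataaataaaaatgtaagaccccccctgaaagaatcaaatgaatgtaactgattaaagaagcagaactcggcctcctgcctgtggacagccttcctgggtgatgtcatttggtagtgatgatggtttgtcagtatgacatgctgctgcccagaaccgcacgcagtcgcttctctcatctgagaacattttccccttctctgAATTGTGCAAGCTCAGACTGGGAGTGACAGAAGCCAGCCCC
Zfp33b: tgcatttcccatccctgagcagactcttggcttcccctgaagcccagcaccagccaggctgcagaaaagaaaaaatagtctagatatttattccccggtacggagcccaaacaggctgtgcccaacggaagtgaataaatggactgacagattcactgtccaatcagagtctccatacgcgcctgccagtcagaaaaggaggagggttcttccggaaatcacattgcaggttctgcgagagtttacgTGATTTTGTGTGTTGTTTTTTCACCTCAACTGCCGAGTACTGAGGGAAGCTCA
Gm32113: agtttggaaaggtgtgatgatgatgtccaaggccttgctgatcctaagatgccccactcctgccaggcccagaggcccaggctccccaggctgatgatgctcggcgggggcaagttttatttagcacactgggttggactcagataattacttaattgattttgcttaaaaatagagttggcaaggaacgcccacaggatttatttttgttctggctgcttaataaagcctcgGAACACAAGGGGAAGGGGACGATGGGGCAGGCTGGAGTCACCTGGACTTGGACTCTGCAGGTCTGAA

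Core promoter motifs were searched on both strands of the 43 windows. TATAAA was present in 8 (18.6%, against 13.6% of 32544 distinct RefSeq windows), CCAAT in 10 (23.3% against 37.4%) and GGGCGG in 10 (23.3% against 35.9%). None of these motifs, read on either strand, contains another. The Zfp33b window holds CCAAT, and the windows of Gm32622 and Gm32113 hold none of the 3. A match is a run of letters and not a shown binding site.

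Antisense chains lay mainly opposite protein-coding genes, 616 of 700, and 34 lay opposite a lincRNA gene. Mirrored and own-intron chains were then compared by position. Few exonic bases of own-intron chains lay on opposite exons: a median of 0.536% of their exonic bases fell there (quartiles 0 and 18.7%), and 216 of 540 (40.0%) had none. In mirrored chains the median was 41.0% (quartiles 16.4 and 100%), and 39 of 127 lay wholly on opposite exons. Some cover of exons follows from sharing the introns, so this difference is in part fixed by how the kinds were defined.

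Many ends of mirrored chains coincided with annotated ends on the opposite strand, whichever gene these belong to. In 50 of 127 mirrored chains (39.4%) the 3′ end lay within 100 bases of an annotated start on the opposite strand, in 45 of them at that very base. The same held for 21 of 540 own-intron chains (3.89%) and for 13 of 32 partly mirrored chains (40.6%), 10 of these 13 at that very base. At 3′ ends the trait was thus not particular to mirrored chains. The 5′ end lay within 100 bases of an annotated 3′ end in 33 mirrored chains (26%) and in 16 own-intron chains (2.96%), and both ends did so in 9 and 2 chains. Of the partly mirrored chains, 2 (6.25%) had such a 5′ end. The median length was 2709 bases in mirrored and 1674 in own-intron chains. The sources used here do not say how the ends of models were set or how reads got their strand, and neither was tested.

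**Figure D4:**
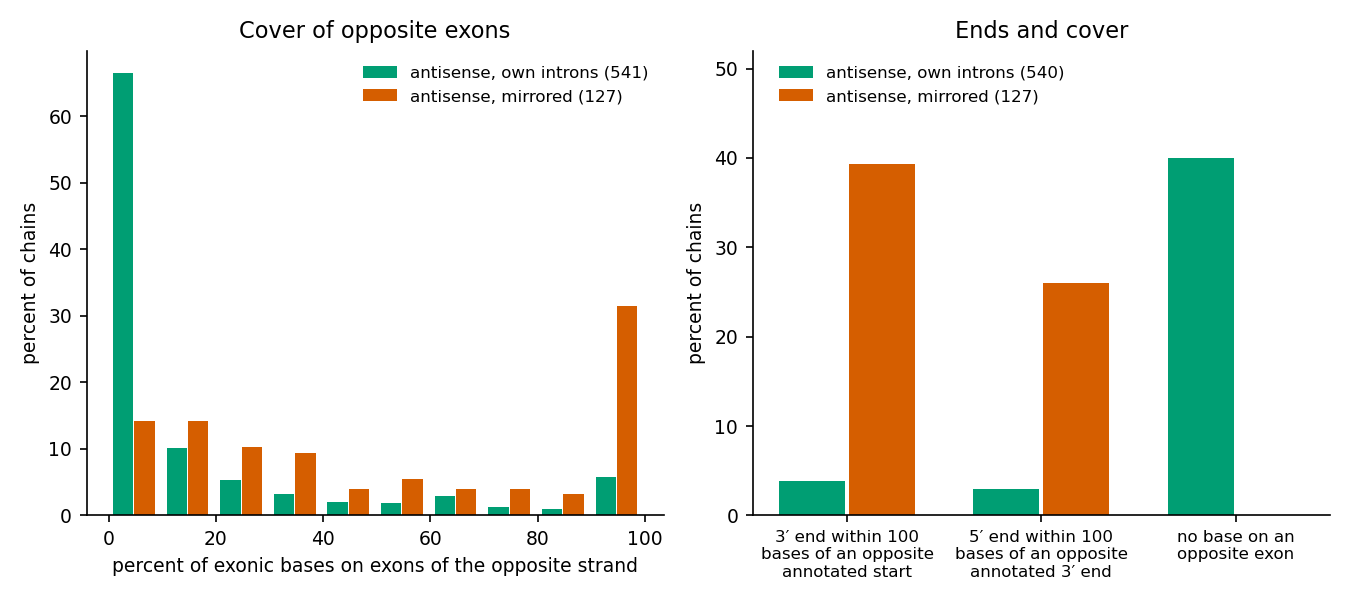
Left, the percent of chains (y axis) by the percent of their exonic bases that lie on exons of the opposite strand (x axis, steps of 10). Right, the percent of chains whose ends lie within 100 bases of an opposite annotated end, or with no base on an opposite exon; 1 own-intron chain without an opposite gene start on its chromosome is left out there. Mirrored chains end at an opposite start in 39.4% and own-intron chains in 3.89%. Partly mirrored chains are not drawn.

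Starts near an annotated start of any gene on the opposite strand were counted as well. Within 1000 bases of an opposite start lay the 5′ ends of 148 own-intron chains (27.4%) and 24 mirrored chains (18.9%). Of these own-intron chains, 134 started downstream of that start, on the gene's side of it, and 14 started upstream of it in the divergent arrangement. Per library, 25.1% and 25.4% of antisense models started within 1000 bases of an opposite start (mean 25.2% ± 0.23, n = 2 libraries).

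Mirrored chains made up 20.8% of the antisense models in replicate 1 and 17.7% in replicate 2 (mean 19.2% ± 2.2, n = 2 libraries), and were 6 of the 8 antisense chains with the highest mean level among those in both libraries. The antisense chain with the most reads was mirrored opposite Ubl3, which encodes a ubiquitin-like protein bound to membranes (chr5:148511894-148552157, plus strand). It has 2 exons of 109 and 205 bases around an intron of 39950 bases and had 13 and 27 reads, or 30.2 and 42.9 CPM (mean 36.5 ± 8.94), with a ratio of 0.705 (0.334 to 1.41). All its 314 exonic bases lie on Ubl3 exons. The mirrored chain opposite Mbnl1, a regulator of alternative splicing (chr3:60529549-60595764, minus strand), had 7 and 18 reads, and both its ends coincide with annotated ends of the other strand. Opposite Bcl2l1, whose product Bcl-xL blocks apoptosis (chr2:152826180-152830618, plus strand), a mirrored chain had 9 and 15 reads with its 3′ end at an annotated start.

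The mirrored chain with the most introns among these ran opposite Crebbp, the gene for a histone acetyltransferase (chr16:4128444-4213997, plus strand). Its 5 introns, from 1265 to 33005 bases long, are all introns of Crebbp, and it had 10 and 9 reads, or 23.2 and 14.3 CPM (mean 18.8 ± 6.33). A mirrored 2-exon chain of the same gene had 0 and 4 reads. Ccdc80, which encodes a protein of the extracellular matrix, lay opposite 3 mirrored chains, with 4 and 15, 4 and 11, and 1 and 2 reads. The ratio of the first, 0.390, had an interval of 0.0943 to 1.23 that holds 1.

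The reads of mirrored chains were set beside those of their genes. The 127 chains lay opposite 113 genes, 11 of them with more than 1 mirrored chain, and in 13 genes the annotated strand had no read in 1 or both libraries. The genes had a median of 40 summed reads, against 14 for all annotated spliced genes read. In 3 genes the mirrored chains had more reads than the gene itself in both libraries. For Crebbp these were 10 and 16 mirrored reads against 3 and 4 reads of the gene. Gtf2a1, a subunit of the general transcription factor TFIIA, had 4 and 5 mirrored reads against 1 and 2. Tox, an HMG box factor, had 4 and 3 against 0 and 1. In the other best read cases the gene was ahead: Ubl3 had 13 and 28 mirrored reads against 95 and 138, Ccdc80 9 and 28 against 27 and 39, and Mbnl1 7 and 18 against 29 and 48. Only 6 of the 127 mirrored chains had a sense counterpart with the same whole intron chain among the reads.

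Gene level was then set beside mirrored chains. Of genes with 1 to 9 summed reads 0.490% had a mirrored chain, of those with 10 to under 100 reads 0.941%, with 100 to under 1000 reads 1.25%, and with 1000 or more 1.44% (2 of 139 genes). Per 1000000 reads of the genes, however, mirrored reads fell from 3562 in the lowest class through 823 and 211 to 5.15 in the highest. The share of genes with an own-intron chain was 2.06%, 3.00%, 2.98% and 3.60% in the same classes. The classes cover the 12622 annotated spliced genes read, so genes such as Fan1, with 0 reads in both libraries, are left out. Gene reads set both the class and the denominator of the mirrored reads. The values also rest on few genes. Crebbp held 26 of the 67 mirrored reads of the lowest class, Ccdc80 37 of 166 in the next and Ubl3 41 of 74 in the third. The highest class had 2 mirrored reads. Whether mirrored reads are a fixed fraction of gene reads was not tested.

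**Figure D5:**
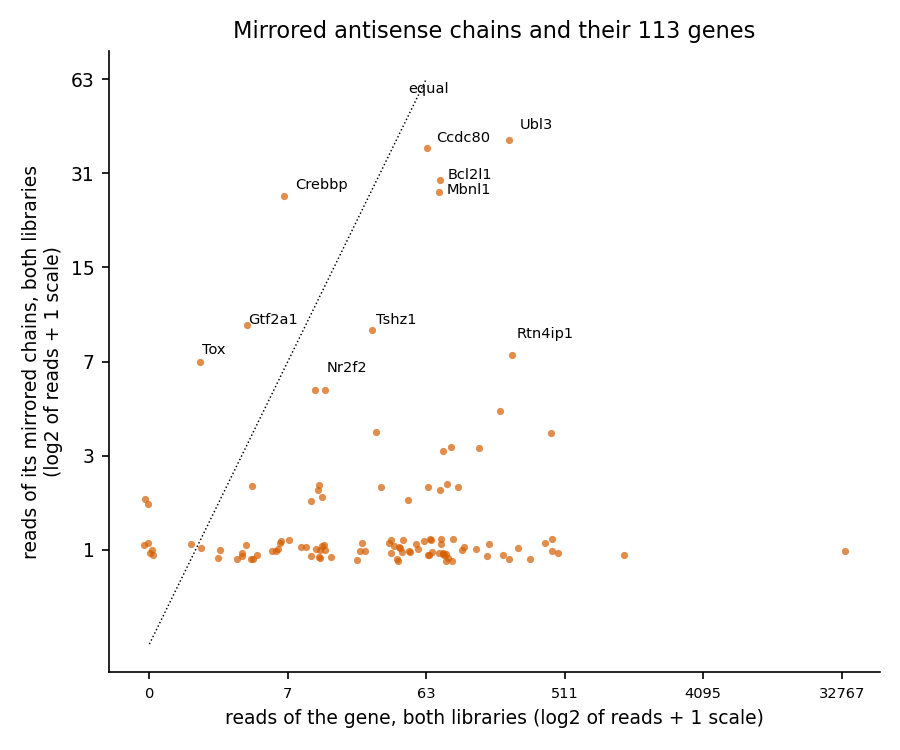
Summed reads of the mirrored chains of each of the 113 genes (y axis) against the summed reads of the gene (x axis), both on log2(reads + 1) scales, with a small random spread. Genes with at least 6 mirrored reads are named, and the dotted line marks equal reads. Of the named genes, Crebbp, Gtf2a1 and Tox lie above the line, and the gene with the most reads has 1 mirrored read.

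The own-intron antisense chain with the highest mean level lay opposite Senp7, a SUMO protease gene (chr16:56111803-56116310, minus strand), with 6 and 8 reads, or 14.0 and 12.7 CPM (mean 13.3 ± 0.88), and touched a Senp7 exon with 1 of its 2179 exonic bases.

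Genes of heart muscle were looked at from a list of 71 sarcomere, calcium handling, channel, transcription factor and metabolism genes. Of these, 15 lay opposite 16 spliced antisense chains, which held 15 reads in replicate 1 and 23 in replicate 2. Among the 68 list genes with spliced reads that is 22.1%, while 3.89% of all 12622 annotated spliced genes read lay opposite such a chain. No test of this difference was made, and the list was chosen with earlier results of these data known. Length and read level of the list genes were not set beside those of all genes, and their part was not tested.

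Of the 16 chains, 3 were found in both libraries. Opposite Ankrd1, a stress-responsive partner of titin, an own-intron chain (chr19:36115199-36118846, plus strand) had 4 and 7 reads. Opposite Ldb3, a Z-disc protein gene, an own-intron chain (chr14:34576027-34583565, plus strand) had 4 and 6 reads, a ratio of 0.976 (0.203 to 4.12). The chain opposite Tnnt2, cardiac troponin T, was mirrored (chr1:135838909-135843073, minus strand) and had 3 and 1 reads against 148 and 267 reads of the gene. Each of the other 13 chains had 1 read in all, among them 2 opposite Myocd and 1 each opposite Ryr2, Myh6, Ttn, Casq2, Ppargc1a, Cacna1c, Myom2, Lpl and Tpm1. Those opposite Myh6, Ttn and Ppargc1a were mirrored. Myh6, the alpha myosin heavy chain, had 15700 and 17418 reads of its own. Spliced reads classed as antisense to Myh6 thus numbered 1 in replicate 1 and 0 in replicate 2, where a count of 0 allows up to 3 reads.

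Chains found in 1 library alone had few reads. The highest in replicate 2 alone lay opposite Zfp521, a zinc finger gene on chromosome 18, with 0 and 5 reads, 1 of its 2 introns being an intron of the gene. It was followed by a chain at the RefSeq gene Gm32622 (chr1:75937512-75945592, plus strand) and the 2-exon Crebbp chain, each with 0 and 4 reads, level with 1 other chain, an intergenic one of 2 exons. In replicate 1 alone the highest was a 3-exon chain at chr9:92219686-92227275 on the minus strand, 9913 bases from Plscr5, with 4 and 0 reads. Chains of 2 and 0 reads followed, among them those at Prep and Pdxk. A count of 0 allows up to 3 reads, 6.97 CPM in replicate 1 and 4.76 CPM in replicate 2, so these chains do not show absence from the other library.

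The chains with the most exons rested on single reads. On the unplaced scaffold JH584304, chains of 25 and 15 exons opposite AC149090.1 had 1 read each, in replicate 2. Among intergenic chains the most exons were 9, in a chain at chr9:94538081-94589568 on the plus strand, which overlaps 1190002N15Rik on the other strand, again with 1 read in replicate 2. Next came 5 intergenic chains of 8 exons, 4 of them at the chromosome 8 locus, and 1 of these 4 had a read in each library.

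The deposited classes were checked against M21. The libraries differed on the class of 5 chains, antisense in 1 and intergenic in the other. No chain held an intron of an annotated gene on its own strand, and 1 held a same-strand annotated splice site. Another 7 antisense chains overlapped no opposite M21 gene, 37 intergenic chains overlapped the span of an M21 gene, and 5 chains were placed under an annotated gene in the other library.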

How the data were processed

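Long-read RNA libraries of 2 heart samples, in 1 group, were analysed. The authors deposited, per library, a table of read counts per transcript model, with no normalization, and the models as an annotation file. Models were made with TALON on the mouse build mm10 against GENCODE M21, per the file headers and the text deposited beside the tables. The sources used here do not give the aligner, the read correction, the strand assignment or program versions.

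Exons and introns of the spliced models of antisense and intergenic loci were read from the annotation files and compared with M21 exons on both strands, and with RefSeq genes of the same assembly, whose strand was not at hand for chromosome 18. The members, the gene list and the kinds of chain were chosen with earlier results of these data known. The deposited counts were turned into CPM with the 430251 and 629896 reads of annotated nuclear genes as denominators. A count of 0 was taken to allow up to 3 reads. Shares carry exact Clopper-Pearson 95% intervals, and ratios of reads carry exact binomial intervals. Spliced chains of all classes with at least 10 summed reads were compared between the libraries by an exact two-sided binomial test with Benjamini-Hochberg adjustment (called at adjusted p under 0.05 and 2-fold), which was tested on simulated data. Log2 ratios had 0.5 reads added. Named chains were the 8 intergenic and 8 antisense chains with the highest mean CPM among those in both libraries, the 3 with the most reads in 1 library alone, the 2 with the most exons per class and all opposite the cardiac gene list; the chains of the printed sequences, Gtf2a1 and Tox were chosen after their values were seen. A few chains that the rule names are not reported here. Replicates share no pairing, as there is 1 group. Python 3.11.15, numpy 2.4.6, scipy 1.17.1 and pandas 2.3.3 were used. Changes of the settings are given at the end.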

Additional observations from a re-analysis of the deposited data

How the results depend on the processing

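With at least 2 reads per model, the mean number of spliced models per library fell from 597.5 to 104.5, their share of mouse reads from 0.209% to 0.118%, and the chains found in both libraries (then with 2 reads in each) from 136 to 47. With at least 3 exons, the mean number was 218.5. Matching splice sites within 10 bases gave 141 chains in both libraries and any shared intron 193. Spliced chains of all classes that differed between the libraries numbered 46 in place of 10 when scaled by ERCC spike-in reads, which moved the median log2 ratio of all chains by -0.26, and 41 with no fold threshold. None of the spliced models of unannotated loci passed under any of the 6 settings tried. The chains entered numbered 49 at a minimum of 5 reads, 8 at 20 and 1059 with no minimum. Of the 1059 chains, 852 had 1 read over both libraries and could not have passed, and others with few reads hardly could. The settings with a lower minimum therefore add little. The share of antisense models that start near an opposite start was 17.0% within 500 bases and 54.1% within 5000, in place of 25.2%. Mirrored models were 23.0% of antisense models with sites within 10 bases, 26.1% among chains in both libraries and 31.6% with at least 2 reads, in place of 19.2%; these settings were chosen after seeing the data. Leaving out each replicate in turn gave 521 to 674 models, 0.202% to 0.216% of mouse reads, 25.1% to 25.4% starting near an opposite start and 17.7% to 20.8% mirrored. GT-AG ends made up 74.7% of the readable introns and 69.2% to 79.6% without a replicate. Checks of poly(A) signals and of A-rich stretches behind the 3′ ends were not run, because they need genome bases that were not at hand. No paired analysis was possible because the series has 1 group. Depth limits every statement on chains with 1 or 2 reads.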
